A study of Mus musculus with 8 samples.

Results

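The 40 genes described here are genes of hepatic stellate cells and of the extracellular matrix that these and other mesenchymal cells of the liver lay down. They were taken by symbol, and each was read from 1 array probe, the brightest of its probes over all arrays. They are 40 of 22911 genes that could be named on the array, and they had 60 of its 32994 named probes. Of the 40 genes, 37 were tested, out of 14067 genes tested in all. A gene was tested if the 4 arrays of WT, of KO or of both showed it well above background, and for these 37 genes all 8 arrays did. *Col5a2*, *Lox* and *Thbs1* were not tested.

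The arrays measured RNA from whole frozen liver of male C57BL/6 mice at 10 weeks of age, 4 *Agpat3* WT and 4 *Agpat3* KO, with 1 array per mouse. *Agpat3* encodes an acyltransferase that places docosahexaenoic acid in phospholipids, and the KO line lacks it in all tissues, so that stellate cells, hepatocytes and all other liver cells of a KO mouse carried the same genotype. No diet, treatment or injury distinguished the groups in the labels, and the labels do not describe the allele or say whether the WT mice were littermates. Each value below is a log2 signal, which is the log2 of the processed fluorescence intensity minus the 75th percentile of the same array, so 0 is the 75th percentile and a difference of 1 is a doubling. Values of different probes cannot be set against each other, since probes differ in brightness, and only differences between mice are compared. In whole liver RNA, fewer cells of a type and less RNA per cell cannot be told apart.

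Hepatic stellate cells lie between hepatocytes and the sinusoidal endothelium. In the healthy liver they store vitamin A as retinyl esters, and after injury they become contractile, matrix-producing myofibroblasts in response to platelet-derived growth factor (PDGF) and transforming growth factor beta (TGF-beta). Fibrillar collagens, collagen VI and elastic fibers make up much of the matrix around portal tracts and vessels, lysyl oxidases cross-link collagen and elastin, and matrix metalloproteinases and their inhibitors (TIMPs) govern its turnover. Portal fibroblasts and vascular smooth muscle cells express many of the same genes, and hepatocytes secrete some of the proteins, such as plasma fibronectin, so the genes do not mark stellate cells alone.

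Stretches of 120 bases before the annotated start are shown for the member that was called, for both collagen VI genes whose groups did not overlap, for a type I collagen gene and for the retinoid enzyme gene *Lrat*, which differed in the other direction. They are from RefSeq, build GRCm38.p6, written 5′ to 3′ on the strand of the gene. Capitals mark matches on either strand to TATAAA (the TATA box), to CCAAT (the letters read by NF-Y), to GGGCGG (the letters read by Sp1 and its relatives), to CAGACA (which holds the short element read by Smad proteins) and to the CArG box (the pattern read by serum response factor).
*Fbln5* (chr12:101819120-101819239, minus strand): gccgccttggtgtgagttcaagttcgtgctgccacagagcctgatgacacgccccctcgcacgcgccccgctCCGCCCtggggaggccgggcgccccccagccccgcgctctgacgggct
*Col6a1* (chr10:76726045-76726164, minus strand): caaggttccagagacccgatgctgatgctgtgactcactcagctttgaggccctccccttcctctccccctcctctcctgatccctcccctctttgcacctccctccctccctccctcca
*Col6a2* (chr10:76623405-76623524, minus strand): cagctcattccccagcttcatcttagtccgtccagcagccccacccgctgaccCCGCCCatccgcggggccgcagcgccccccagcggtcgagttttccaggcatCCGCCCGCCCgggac
*Col1a2* (chr6:4505498-4505617, plus strand): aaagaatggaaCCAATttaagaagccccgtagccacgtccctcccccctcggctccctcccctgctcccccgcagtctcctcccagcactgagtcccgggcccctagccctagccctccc
*Lrat* (chr3:82903975-82904094, minus strand): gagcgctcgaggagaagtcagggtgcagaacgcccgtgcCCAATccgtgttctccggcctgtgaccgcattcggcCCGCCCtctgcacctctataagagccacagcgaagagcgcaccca
RefSeq windows of 300 bases, 250 before and 50 after the start, were at hand for 26 of the 40 genes. GGGCGG was in 17 of the 26 (65.4%), against 35.9% of 27025 promoter windows of the same length, and in the *Col6a2* stretch its last 2 matches overlap. CCAAT was in 11 (42.3%, against 37.9%), CAGACA in 7 (26.9%, against 21%) and TATAAA in 3 (11.5%, against 14.2%). The CArG box, searched only as the exact pattern CCWWWWWWGG with W for A or T, was in 0 of the 26 windows, against 1.57% of all windows. Sites that deviate from this pattern were not searched, so the 0 does not mean that these promoters lack such sites. These counts describe letters in the windows and not binding.

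All arrays shared 1 slide and 1 scan. Row 1 held every WT sample, row 2 every KO sample, and an effect of the row cannot be told apart from one of the genotype. Between 29888 and 31892 probes per array were well above background, no spot was saturated, and the array correlations were 0.988 to 0.996 within WT, 0.990 to 0.993 within KO and 0.985 to 0.992 across genotypes. *Agpat3* itself, read by its brighter probe, was at 5.65 to 5.88 in WT and -0.58 to 0.02 in KO, a log2 difference of -6.12 (SE 0.14, limma adjusted p = 4.47e-07), as its labels state. Over all probes, 484 of 29069 were called, 211 lower (0.726%) and 273 higher (0.939%) in KO, where a call is a fold change over 1.5 with a Benjamini-Hochberg adjusted p of limma under 0.2.

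A property of WT replicate 2 touches most of what follows. This mouse had the highest signal of all 8 in 25 of the 37 members tested (67.6%), among them all 10 collagens, against 9.64% of all genes tested. In 16 members its signal was over 1.5-fold above the mean of the other WT mice, which was so for 2.25% of all genes. The median excess over the other WT mice was 0.51 for the members and -0.0092 for all genes, on the log2 scale. Its array had the most probes well above background, 31892 against 29888 to 30736 on the other WT arrays, and its correlations with the other WT arrays were 0.992 to 0.996, against 0.988 to 0.993 among those. The part of the array in this excess was not tested, and differences over 0.2 in size that moved by over 1.5 times without this mouse are given both ways.

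**Figure D1:**
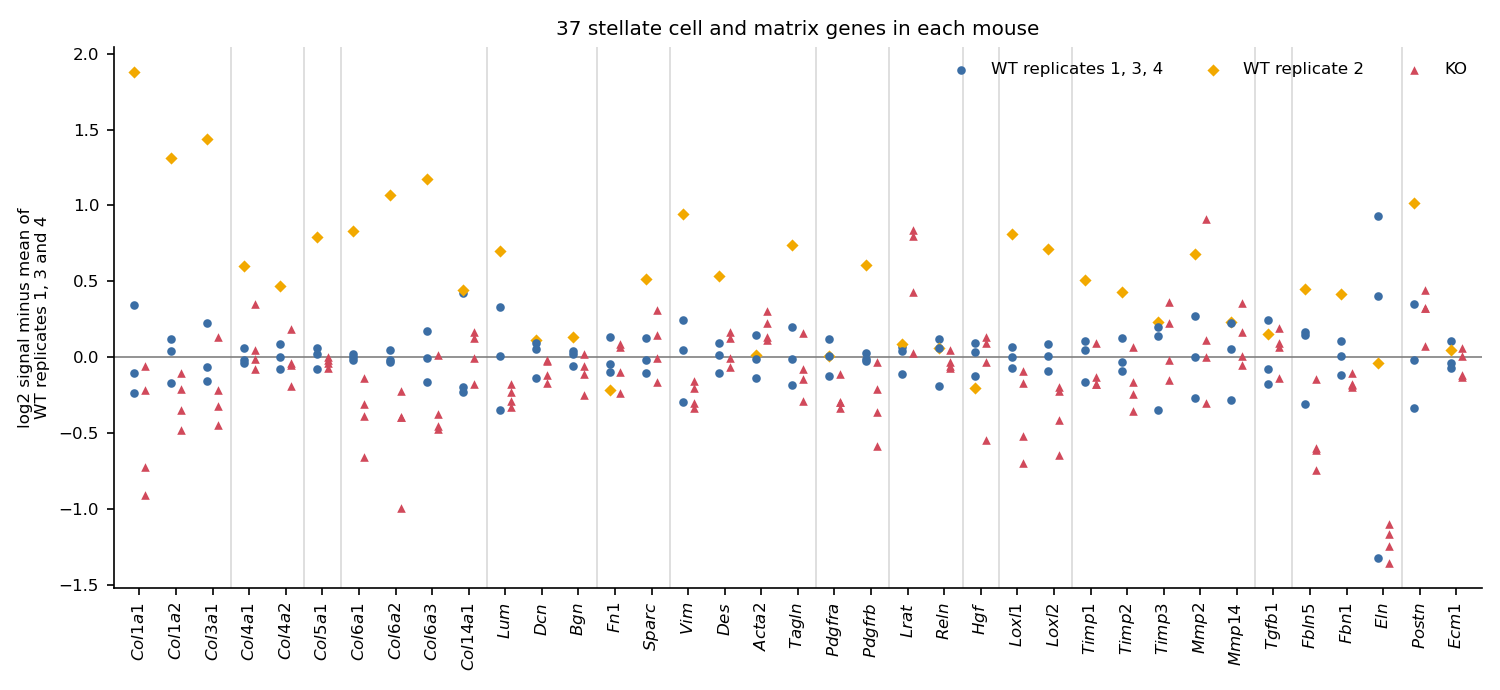
Log2 signal of the 37 tested members in each mouse, relative to the mean of WT replicates 1, 3 and 4 (y axis), with genes in the order of the list (x axis) and gray lines between groups of genes. WT replicate 2 (diamonds) was the highest of the 8 mice in 25 of the 37 genes and in all 10 collagens, while the KO mice (triangles) mostly lay near or below the other WT mice (circles).

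In *Agpat3* KO liver, 1 of the 37 members was called, *Fbln5*, which was lower, and 0 were called higher. Over all genes tested, 0.754% were called lower and 1.01% higher, 1.76% in either direction. At an unadjusted limma p under 0.05, 9 members were lower (*Fbln5*, *Eln*, *Fbn1*, *Loxl1*, *Loxl2*, *Col6a1*, *Col6a2*, *Pdgfra* and *Pdgfrb*) and 2 higher (*Lrat* and *Acta2*), against 8.2% of all genes lower and 5.74% higher. The log2 difference was below 0 for 29 of the 37, against 57.9% of all genes, with a median of -0.22 against -0.032 over all genes. All KO mice lay below all WT mice in 5 members, *Col6a1*, *Col6a2*, *Pdgfrb*, *Loxl1* and *Loxl2*, which was so for 5.81% of all genes, and all KO mice lay above all WT mice in 0, against 3.85%.

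Without WT replicate 2 the median of the members was -0.087, against -0.033 over all genes. Then 0 members were called, against 0.384% of all genes lower and 0.697% higher, and at an unadjusted limma p under 0.05 there were 7 lower and 1 higher, against 6.76% and 5.08%. The groups did not overlap in 5 members with all KO mice lower, against 7.85% of all genes, and in 0 with all KO mice higher, against 5.1%, and 26 of 37 differences were below 0, against 57.9%. The count of 5 also moved with other mice: it was 10 without WT replicate 3, 9 without WT replicate 4 and 12 without KO replicate 1, where the shares of all genes were 7.68%, 9.45% and 7.78%. The 95% confidence interval of the difference lay within 1.5-fold either way for 18 of the 37 members and within 2-fold for 27, and for the others the interval reached past that size.

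The spread between mice was uneven. The SD was larger in WT than in KO for 31 of the 37 members, against 53.9% of all genes. Its median was 0.30 in WT and 0.16 in KO, and over all genes these medians were 0.15 and 0.14. Without WT replicate 2 the SD was larger in WT for 17 of 37, and its median in WT was 0.12.

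**Figure D2:**
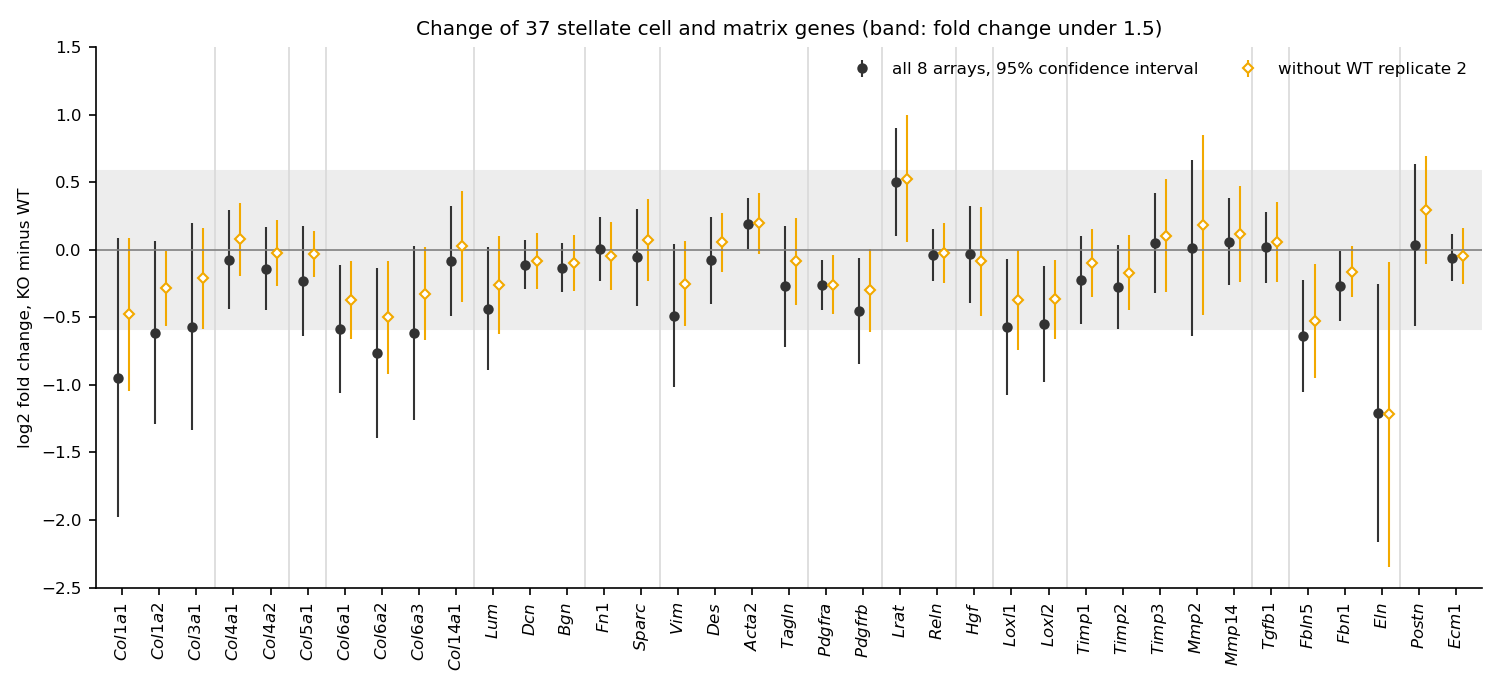
Log2 fold change of KO against WT (y axis) for the 37 tested members (x axis) with 95% confidence intervals of limma, over all 8 arrays (filled circles) and without WT replicate 2 (open diamonds). The gray band marks changes under 1.5-fold; most collagens move toward 0 without that mouse, while *Eln*, *Pdgfra*, *Lrat* and *Acta2* keep almost the same value.

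The fibrillar collagens form the tensile fibers of the matrix, and none of the 4 tested was called. *Col1a1*, which encodes the alpha 1 chain of type I collagen, was at -0.17, 1.82, 0.28 and -0.30 in WT replicates 1 to 4 and at -0.12, -0.28, -0.97 and -0.79 in KO. WT replicate 2 stood far above all others, and the remaining WT mice overlapped the KO mice. The log2 difference was -0.95 (SE 0.45, 95% confidence interval -1.98 to 0.086, limma adjusted p = 0.417), and -0.48 without WT replicate 2. Its other probe read almost the same, with -1.0 over all mice and -0.51 without that one. *Col1a2*, the alpha 2 chain of the same trimer, was at 2.80, 4.07, 2.88 and 2.59 in WT and at 2.65, 2.55, 2.28 and 2.41 in KO. Again the top value was that of WT replicate 2, and KO replicate 1 lay above WT replicate 4. The difference was -0.61 (SE 0.30, limma adjusted p = 0.425), and -0.28 without WT replicate 2. *Col3a1*, the type III collagen chain of reticular fibers, was at 1.72, 3.22, 2.01 and 1.63 in WT and at 1.92, 1.57, 1.34 and 1.46 in KO, a difference of -0.57 (limma adjusted p = 0.523) that was -0.21 without WT replicate 2. *Col5a1*, a chain of the type V collagen that nucleates fibrils, ranged from 0.57 to 1.44 in WT and from 0.58 to 0.65 in KO, a difference of -0.23 that was -0.032 without WT replicate 2. *Col5a2* was well above background on 2 WT and 2 KO arrays, which gave no test.

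Basement membrane collagens underlie vessels and bile ducts. *Col4a1* was at 0.98, 1.60, 1.06 and 0.96 in WT and at 1.05, 0.99, 1.35 and 0.92 in KO. The groups overlapped throughout, and the difference of -0.073 (95% confidence interval -0.44 to 0.29, limma adjusted p = 0.886) lay within 1.5-fold either way and was 0.076 without WT replicate 2. *Col4a2*, its partner chain, ranged from 0.90 to 1.45 in WT and from 0.79 to 1.17 in KO, with a difference of -0.14, or -0.024 without WT replicate 2.

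Collagen VI forms beaded microfibrils around cells, and *Col6a1* and *Col6a2* were the collagens in which WT and KO mice did not overlap. *Col6a1* was at 1.16, 1.99, 1.14 and 1.18 in WT and at 1.02, 0.77, 0.50 and 0.85 in KO. All KO mice were below all WT mice, by a small margin for KO replicate 1. The log2 difference was -0.58 (SE 0.21, limma adjusted p = 0.278, exact permutation p = 0.0286, the smallest that 4 against 4 mice can give), and -0.37 without WT replicate 2. *Col6a2* was at -2.52, -1.43, -2.45 and -2.53 in WT and at -2.72, -2.89, -3.49 and -2.89 in KO, so these groups were separate as well. Its difference was -0.77 (SE 0.27, limma adjusted p = 0.281), and -0.50 without WT replicate 2. The *Col6a2* probe was dim, and its difference was -0.34 with normexp, another background correction. *Col6a3* ranged from -0.18 to 1.16 in WT and from -0.49 to 0 in KO (difference -0.62, limma adjusted p = 0.395, and -0.32 without WT replicate 2). *Col14a1*, a fibril-associated collagen, ranged from -1.0 to -0.33 in WT and from -0.95 to -0.61 in KO, with a difference of -0.084, or 0.026 without WT replicate 2. Over all 10 collagens tested, the mean deviation from the mean of WT replicates 1, 3 and 4 was 0.030, 1.00, 0.066 and -0.096 in WT replicates 1 to 4 and -0.059, -0.21, -0.33 and -0.25 in KO replicates 1 to 4. Set against the other WT mice, WT replicate 2 was thus further away than any KO mouse. The median difference of the 10 genes was -0.58, and -0.25 without that mouse.

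The elastic fiber and lysyl oxidase genes held the only member called. All 5 tested were lower at an unadjusted limma p under 0.05, against 8.2% of all genes, with a median difference of -0.57. Without WT replicate 2 this was so for 3, against 6.76% of all genes, with a median of -0.37. *Fbln5*, which encodes fibulin 5, a protein that links elastic fibers to cells and is needed for their assembly, was at 0.42, 0.70, 0.40 and -0.06 in WT and at 0.11, -0.49, -0.36 and -0.35 in KO. WT replicate 4 and KO replicate 1 crossed, and the other mice were separate. *Fbln5* fell by 0.64 on the log2 scale, so that the WT mean was 1.56-fold the KO mean (SE 0.18, 95% confidence interval -1.06 to -0.22, limma adjusted p = 0.194, exact permutation p = 0.0571). The call lay close to both thresholds. It was lost without any single mouse among WT replicates 1, 2 and 3 and KO replicates 2, 3 and 4, with differences of -0.62, -0.53, -0.63, -0.57, -0.61 and -0.61 and limma adjusted p values of 0.302, 0.353, 0.368, 0.367, 0.299 and 0.309. It was also lost with normexp (-0.55, limma adjusted p = 0.152), with no filter on dim probes (0.429), with probes well above background on all 8 arrays only (0.201), with the slide column as a block (0.209) and by an unpaired t test (0.290). It was kept without WT replicate 4 (-0.78, 0.113) and without KO replicate 1 (-0.76, 0.170).

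*Eln*, the elastin gene, had the largest difference of all members tested. It was at -3.55, -2.26, -1.29 and -1.82 in WT and at -3.39, -3.58, -3.47 and -3.32 in KO. WT replicate 1 lay among the KO mice, which were tightly grouped, while the other WT mice were all higher. The difference was -1.21 (SE 0.42, 95% confidence interval -2.16 to -0.25, limma adjusted p = 0.271), nearly the same without WT replicate 2 (-1.22). Without WT replicate 1 it was -1.65, with a limma adjusted p of 0.0443, and was called. The probe was dim, and with normexp the difference was -0.49 (limma adjusted p = 0.146), under 1.5-fold. The second *Eln* probe was well above background on 3 WT and 2 KO arrays and was not tested.

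*Fbn1*, encoding the fibrillin 1 of microfibrils, was at -1.80, -1.49, -2.02 and -1.90 in WT and at -2.01, -2.09, -2.10 and -2.08 in KO. The KO values were close together, and only KO replicate 1 was above the lowest WT mouse, with a difference of -0.27 (SE 0.11, limma adjusted p = 0.359), or -0.16 without WT replicate 2 and -0.15 with normexp. *Loxl1*, a lysyl oxidase that acts on elastin, was at -1.77, -0.89, -1.63 and -1.70 in WT and at -1.79, -2.22, -2.40 and -1.87 in KO. The groups were separate only by the narrow gap between WT replicate 1 and KO replicate 1, and the difference was -0.57 (SE 0.22, limma adjusted p = 0.316), or -0.37 without WT replicate 2 and -0.36 with normexp. *Loxl2*, which cross-links collagen, was at 0.02, 0.65, -0.16 and -0.06 in WT and at -0.48, -0.29, -0.26 and -0.71 in KO. These groups were also separate, with a difference of -0.55 (SE 0.19, limma adjusted p = 0.266), or -0.37 without WT replicate 2 and -0.32 with normexp. A second *Loxl2* probe gave -0.12 (limma adjusted p = 0.751), so the probes of this gene disagree. *Lox* was well above background on 1 WT and 1 KO array and was not tested.

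**Figure D3:**
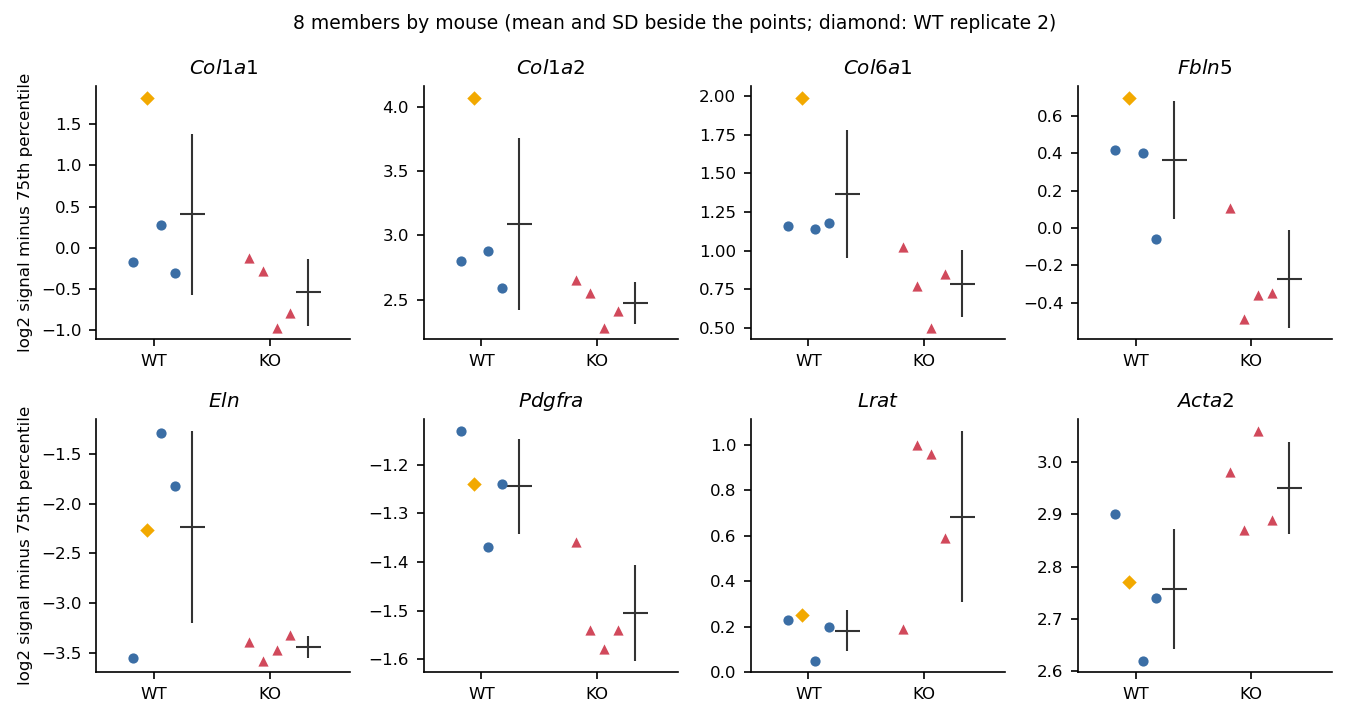
Log2 signal (y axis, with 0 at the 75th percentile) of 8 members in each WT mouse (circles, with replicate 2 as a diamond) and each KO mouse (triangles), with the mean and SD of 4 mice beside the points. Each panel has its own scale; in *Col1a1*, *Col1a2* and *Col6a1* WT replicate 2 stands above the rest, in *Eln* WT replicate 1 lies with the KO mice, and in *Lrat* KO replicate 1 lies with the WT mice.

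The small leucine-rich proteoglycans bind collagen fibrils and limit their width. *Lum* (lumican) ranged from 0.35 to 1.40 in WT and from 0.37 to 0.52 in KO, with a difference of -0.44 (limma adjusted p = 0.401), or -0.26 without WT replicate 2. Without WT replicate 1 its difference was -0.61 with a limma adjusted p of 0.197, and it was called. *Dcn* (decorin) ranged from 6.29 to 6.54 in WT and from 6.26 to 6.41 in KO, and *Bgn* (biglycan) from -0.24 to -0.05 in WT and from -0.43 to -0.16 in KO. Their differences were -0.11 and -0.13, and both 95% confidence intervals lay within 1.5-fold.

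Of the adhesive glycoproteins of the matrix, 4 were tested and 0 called, with a median difference of -0.026. *Fn1* (fibronectin), which hepatocytes also express, was at 7.75, 7.63, 7.80 and 7.98 in WT and at 7.61, 7.91, 7.75 and 7.93 in KO. The groups overlapped fully, with a difference of 0.0064 (95% confidence interval -0.23 to 0.24, limma adjusted p = 0.987). Its other probes gave 0.091 and -0.19. *Sparc*, a collagen-binding protein, ranged from 6.27 to 6.89 in WT and from 6.21 to 6.69 in KO, a difference of -0.058 that was 0.070 without WT replicate 2. *Ecm1* (extracellular matrix protein 1) ranged from 5.87 to 6.05 in WT and from 5.81 to 6.00 in KO. *Postn* (periostin), induced in activated fibroblasts, ranged from -1.49 to -0.14 in WT and from -1.08 to -0.71 in KO, a difference of 0.037 that was 0.29 without WT replicate 2. *Thbs1* (thrombospondin 1) was well above background on 2 WT and 1 KO array and was not tested.

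Cytoskeletal genes distinguish stellate cells and myofibroblasts. *Des* (desmin), an intermediate filament of stellate cells, was at -2.66, -2.14, -2.78 and -2.58 in WT and at -2.51, -2.68, -2.74 and -2.55 in KO. The groups overlapped, and the difference was -0.080 (limma adjusted p = 0.851), or 0.055 without WT replicate 2. *Acta2*, the smooth muscle actin by which activated stellate cells are recognized, was at 2.90, 2.77, 2.62 and 2.74 in WT and at 2.98, 2.87, 3.06 and 2.89 in KO. WT replicate 1 lay within the KO range, and the difference was 0.19 (SE 0.083, 95% confidence interval 0.0023 to 0.38, limma adjusted p = 0.373), under 1.5-fold throughout the interval. A second *Acta2* probe gave -0.42 (limma adjusted p = 0.681), and the mean of both probes -0.12, so the direction for this gene was not settled by its probes. *Vim* (vimentin) ranged from 1.20 to 2.44 in WT and from 1.16 to 1.34 in KO (difference -0.49, limma adjusted p = 0.416, and -0.25 without WT replicate 2), and *Tagln* (transgelin) from 2.47 to 3.39 in WT and from 2.36 to 2.81 in KO (difference -0.27, and -0.087 without WT replicate 2).

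The PDGF receptors carry the main proliferative signal of stellate cells and fibroblasts. *Pdgfrb* was at 0.08, 0.66, 0.03 and 0.04 in WT and at -0.16, -0.53, 0.02 and -0.31 in KO. All KO mice were below all WT mice, with KO replicate 3 at nearly the same value as WT replicate 3, and the difference was -0.45 (SE 0.17, limma adjusted p = 0.312), or -0.30 without WT replicate 2. *Pdgfra* was at -1.13, -1.24, -1.37 and -1.24 in WT and at -1.36, -1.54, -1.58 and -1.54 in KO. WT replicate 3 and KO replicate 1 nearly coincided and all other mice were separate, with a difference of -0.26 (SE 0.080, 95% confidence interval -0.45 to -0.078, limma adjusted p = 0.220) that was the same without WT replicate 2. This interval does not reach 1.5-fold. *Tgfb1*, the main fibrogenic cytokine, was at -1.15, -0.82, -1.05 and -0.73 in WT and at -1.11, -0.78, -0.91 and -0.88 in KO. *Hgf*, the hepatocyte growth factor that stellate cells secrete, was at -1.21, -1.29, -0.99 and -1.05 in WT and at -0.99, -0.95, -1.63 and -1.12 in KO. Both overlapped between the genotypes, with differences of 0.018 and -0.035 and 95% confidence intervals within 1.5-fold. A second *Hgf* probe gave -0.20 (limma adjusted p = 0.370).

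*Lrat* and *Reln* mark stellate cells. *Lrat*, whose enzyme makes the retinyl esters that stellate cells store, was at 0.23, 0.25, 0.05 and 0.20 in WT and at 0.19, 1.00, 0.96 and 0.59 in KO. KO replicate 1 lay within the WT range, and the other KO mice were all higher than every WT mouse. The difference was 0.50 (SE 0.17, 95% confidence interval 0.10 to 0.90, limma adjusted p = 0.272), and 0.53 without WT replicate 2. Without KO replicate 1 it was 0.67, with a limma adjusted p of 0.120, and was called. *Reln* (reelin) was at 2.81, 2.75, 2.50 and 2.75 in WT and at 2.62, 2.66, 2.63 and 2.74 in KO, where the groups overlapped with a difference of -0.039 (95% confidence interval -0.23 to 0.15).

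Of the proteases and inhibitors, none of 5 was called or had an unadjusted limma p under 0.05, and their median difference was 0.012. *Timp3*, an inhibitor that is held in the matrix, was at 2.20, 2.29, 2.26 and 1.71 in WT and at 2.04, 2.28, 2.42 and 1.91 in KO. Replicate 4 was the lowest in both genotypes and the groups overlapped, with a difference of 0.047 (limma adjusted p = 0.929). *Timp1* ranged from -0.17 to 0.50 in WT and from -0.18 to 0.09 in KO, and *Timp2* from 2.99 to 3.51 in WT and from 2.73 to 3.15 in KO. Their differences were -0.22 and -0.28, and -0.098 and -0.17 without WT replicate 2. *Mmp2*, a gelatinase, ranged from -3.23 to -2.28 in WT and from -3.26 to -2.05 in KO. *Mmp14*, the membrane protease that activates it, ranged from -1.66 to -1.14 in WT and from -1.43 to -1.02 in KO.

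The members were set beside 20 further stellate cell markers. Of these, 18 were tested, and *Gfap* and *Ntm* were not. *Gfap* was well above background on 0 WT and 1 KO array, and *Ntm* on 3 and 2. The 18 had a median difference of 0.0018, and 1 was called lower and 0 higher, against 0.754% and 1.01% of all genes. WT replicate 2 was the highest of the 8 mice in 2 of them (11.1%), against 25 of 37 members and 9.64% of all genes. At an unadjusted limma p under 0.05, 1 of the 18 was lower and 2 higher, against 8.2% and 5.74% of all genes. All KO mice lay below all WT mice in 1 and above them in 2, against 5.81% and 3.85% of all genes. Their summed level, in units of the 75th percentile, was 84.9 to 94.5 in WT and 80.0 to 97.3 in KO. Such sums, here and below, are carried mostly by the brightest probes of a list and can hide changes of dimmer ones. The gene called was *Adamtsl2*, which encodes a protein that binds fibrillin microfibrils. It fell by 0.82 on the log2 scale (limma adjusted p = 0.133), with WT mice at -1.26 to -0.47 and KO mice at -1.97 to -1.35. The call was not stable, as given below. *Nes* (nestin) was at -0.86 to -0.24 in WT and at -0.06 to 0.03 in KO, with a difference of 0.47 (limma adjusted p = 0.182) that was under 1.5-fold.

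Other genes of the matrix and of its signals were read from 7 lists, and cell types of the liver from 8, the stellate list included. Together these lists held 215 genes tested beside the members, of which 5 were called lower and 0 higher, against 0.754% and 1.01% of all genes. At an unadjusted limma p under 0.05 there were 21 lower and 6 higher, against 8.2% and 5.74% of all genes. The median difference over these genes was -0.047.

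Among 13 other collagens tested of 33 listed, 0 were called and the median difference was 0.043. Of 23 genes of collagen processing and cross-linking, 0 were called and the median was -0.044. *Adamts2*, the procollagen N-proteinase, was at 1.25 to 2.05 in WT and 0.77 to 1.09 in KO (difference -0.51, limma adjusted p = 0.276), with no overlap, and its difference was -0.32 without WT replicate 2.

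Of 32 basement membrane and other glycoprotein genes, 1 was called. *Tnxb* (tenascin-X), which associates with collagen fibrils and elastic fibers, was at 0.54, 1.20, 0.56 and 0.30 in WT and at 0.03, -0.20, -0.56 and -0.28 in KO. *Tnxb* fell by 0.90 (SE 0.20, limma adjusted p = 0.115), with no overlap, and stayed called without WT replicate 2 at -0.72 (limma adjusted p = 0.154). Its call was lost without WT replicate 3 (limma adjusted p = 0.242), KO replicate 2 (0.226) or KO replicate 4 (0.201). The median of this list was -0.11, and WT replicate 2 was the highest mouse in 17 of the 32, against 9.64% of all genes. At an unadjusted limma p under 0.05, 1 of the 32 was lower and 1 higher, against 8.2% and 5.74% of all genes. The higher one, *Nid2*, differed by 0.47 (limma adjusted p = 0.227), with all KO mice above all WT mice, which was so for 3.85% of all genes.

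Of 8 other proteoglycans, *Podn* (podocan) was called, at -1.15, -0.78, -0.91 and -0.27 in WT and at -1.52, -1.59, -1.64 and -1.47 in KO. *Podn* fell by 0.78 (limma adjusted p = 0.110), and its call was lost without WT replicates 2 or 3 or KO replicates 1 or 2, with limma adjusted p values of 0.224, 0.221, 0.204 and 0.234. The list had a median of -0.29, with 3 lower at an unadjusted limma p under 0.05, against 8.2% of all genes. The 17 proteases and inhibitors tested beside the members had a median of 0.015. At an unadjusted limma p under 0.05, 2 of the 17 were lower and 2 higher, against 8.2% and 5.74% of all genes. All KO mice lay below all WT mice in 1 and above them in 1, against 5.81% and 3.85% of all genes. Of the 17, *Serpine2* (protease nexin 1, an inhibitor of thrombin and of plasminogen activators) was called. It was at 3.18, 2.44, 2.38 and 3.24 in WT and at 1.81, 1.61, 0.68 and 1.53 in KO, and fell by 1.40 (SE 0.30, limma adjusted p = 0.104), the largest decrease among the called genes of these lists. Here WT replicate 2 was not the high mouse, and without it the difference was -1.52 (limma adjusted p = 0.157). The call was lost without KO replicate 2 (limma adjusted p = 0.201). *Adamtsl2* lost its call without WT replicates 1, 2 or 3 or KO replicates 2, 3 or 4, at limma adjusted p values of 0.202 to 0.278. Its call was also lost with normexp (-0.51), with no filter on dim probes (limma adjusted p = 0.31) and by an unpaired t test (adjusted p = 0.229).

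Of 28 genes of TGF-beta and PDGF signaling, 0 were called, with a median of -0.091. *Pdgfb*, which encodes a ligand of both PDGF receptors, was at -1.05, -0.72, -0.85 and -1.01 in WT and at -1.39, -1.36, -1.33 and -1.32 in KO. The groups were well apart, and the difference of -0.45 (SE 0.085, limma adjusted p = 0.0807) was under the 1.5-fold limit. Without WT replicate 2 it was -0.38 (limma adjusted p = 0.155). Of 19 matrix receptor genes, 0 were called, and their median was -0.066.

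Markers of other cell types were counted beside these results. Of 10 portal fibroblast markers, 9 were tested and 0 called, and their median was -0.10. WT replicate 2 was the highest mouse in 5 of the 9, against 9.64% of all genes. The summed level of the 9 was 4.59 to 6.17 in WT and 4.12 to 5.68 in KO, and *Gli1* was well above background on 0 of 8 arrays. At an unadjusted limma p under 0.05, 2 of the 9 were lower, against 8.2% of all genes. *Dpt* (dermatopontin) was at -2.33, -0.72, -1.77 and -2.14 in WT and at -2.28, -3.15, -2.80 and -2.58 in KO, a difference of -0.96 (limma adjusted p = 0.289), or -0.62 without WT replicate 2. *Pi16* was at -2.90, -2.56, -3.16 and -2.93 in WT and at -3.38, -3.71, -3.10 and -3.81 in KO, a difference of -0.62 (limma adjusted p = 0.207), or -0.51 without WT replicate 2. WT replicate 2 was the highest mouse in both, and 1 KO mouse lay within the WT range in each. Of 8 smooth muscle markers, 5 were tested and 0 called, with summed levels of 8.56 to 10.2 in WT and 9.30 to 10.8 in KO. *Lmod1* and *Synpo2* were well above background on 0 of 8 arrays, and WT replicate 2 was the highest in 1 of the 5. Of 6 mesothelial markers, 2 were tested and 0 called, with summed levels of 0.23 to 0.57 in WT and 0.27 to 0.72 in KO. The 2 differed in opposite directions, *Wt1* by -1.27 (limma adjusted p = 0.272) and *Msln* by 0.88 (limma adjusted p = 0.403). The *Wt1* probe was dim, well above background on 4 WT and 2 KO arrays. *Upk1b* and *Lrrn4* were well above background on 0 of 8 arrays. The part of portal fibroblasts in the signal of WT replicate 2 and in the differences above was not tested.

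All 16 sinusoidal endothelial markers were tested, with 0 called, a median of 0.037 and summed levels of 140.2 to 147 in WT and 135 to 155 in KO. At an unadjusted limma p under 0.05, 1 of the 16 was lower, *Lyve1* (-0.52, limma adjusted p = 0.315), against 8.2% of all genes. All 12 Kupffer cell markers were tested, and *Marco*, a scavenger receptor of macrophages, was called. *Marco* was at 2.49, 2.87, 3.52 and 3.20 in WT and at 1.33, 1.77, 2.25 and 1.84 in KO, and fell by 1.22 (limma adjusted p = 0.0981). The call was lost without WT replicate 3 (limma adjusted p = 0.212) or KO replicate 2 (0.215). The other 11 Kupffer cell markers were not called, the median of the 12 was -0.081, and their summed levels were 113 to 187 in WT and 96.6 to 159 in KO. Of 7 cholangiocyte markers, 4 were tested and 0 called, with summed levels of 1.54 to 1.78 in WT and 1.18 to 1.97 in KO. At the same unadjusted limit 1 of the 4 was lower, *Sox9* (-0.64, limma adjusted p = 0.360), against 8.2% of all genes. All 10 hepatocyte markers were tested and 0 called, with a median of -0.061 and summed levels of 5985 to 6467 in WT and 6010 to 6189 in KO. At an unadjusted limma p under 0.05, 2 of the 10 were lower, against 8.2% of all genes. These were *Hnf4a* (-0.33, limma adjusted p = 0.276) and *Tdo2* (-0.33, limma adjusted p = 0.304). In *Tdo2* all KO mice lay below all WT mice, which was so for 5.81% of all genes.

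**Figure D4:**
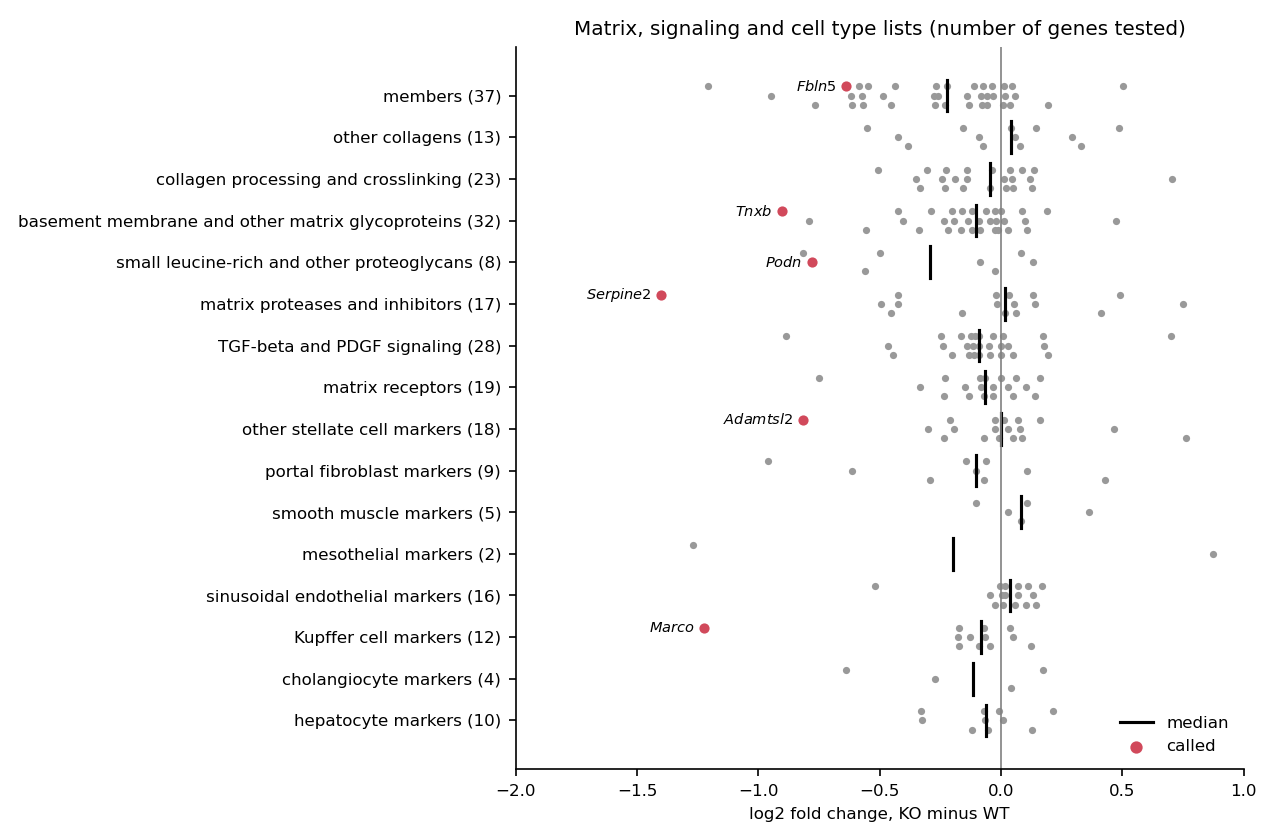
Log2 fold change of KO against WT (x axis) for each gene tested in the member list and in 15 lists of matrix, signaling and cell type genes (y axis, with the number of genes tested). Black bars are medians and red points are genes called; the members have a median of -0.22, and 1 gene is called in each of the 6 lists that hold a named point.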

How the data were processed

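Liver RNA of 4 *Agpat3* WT and 4 *Agpat3* KO mice was hybridized to 1-color Agilent arrays. The authors deposited Feature Extraction 10.7.1.1 output, whose processed signal is a background-corrected intensity on a linear scale, and 1 table of log2 values, which proved to be the log2 of this intensity less its 75th percentile per array. That percentile was 261 to 309 over a median background of 27 to 32, and dim probes are the least precise.

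Control spots and outlier spots (86 to 150 per array) were dropped, the same scaling was computed over probes without controls, and spots of a probe were averaged. A probe was kept if at least 1 genotype had it well above background on all its 4 arrays (29069 of 56605). Genotypes were compared in 1 two-sided limma model (lmFit, eBayes; limma 3.58.1, R 4.3.3), with Benjamini-Hochberg adjustment over the probes kept. The call (adjusted p under 0.2, fold change over 1.5) takes the thresholds of the volcano plot of the study, which does not say whether p was adjusted. Exact permutation tests were two-sided over 70 assignments. Probes were named through RefSeq transcripts of GRCm38.p6 (32994 of 56605). The scanner files name mm9, so no probe coordinates are given. Nothing in the labels says how the mice were related, and p-values measure the spread between these mice.

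Members and lists were chosen with earlier results of these data known. Values per mouse are given for members called, the 10 of lowest p, those with separate groups and a fixed set of genes. Of other lists, called genes and at most the 2 of lowest p are named. Alternatives were normexp on median spot signals, quantile and median scaling, the deposited log2 table, 2 other filters, keeping outlier spots, eBayes with trend and robust, a replicate block, leaving out each array, other thresholds, an unpaired t test, and averaging a gene's probes. The model was run on simulated data with a log2 change of 1.5 in 200 of 29050 probes. It recovered 95% of these, and 16.3% of its calls were false. That change is larger than the difference of any member over all arrays, so power for the members was not measured. The simulated noise was independent between probes and between mice. Shifts shared by many genes of a mouse were not modeled, so the share of false calls does not cover them. Cross-hybridization of related genes was not tested.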

Additional observations from a re-analysis of the deposited data

Results flagged for a closer look

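Groups of 4 mice, 1 for each tested member and genotype, came from the same mice and were not independent draws. In 8 of 74 groups of 4 mice, 1 mouse stood apart from the other 3 by Dixon's criterion at 95%, where chance flags about 1 in 20 groups. In 6 of the 8 it was WT replicate 2. Over all genes tested, this mouse stood apart in 0.93%, and the other mice in 0.6% to 2.62% each. Its log2 signal was 1.60 for *Col4a1* (other WT mice 0.96 to 1.06), 1.44 for *Col5a1* (0.57 to 0.71), 1.99 for *Col6a1* (1.14 to 1.18), -1.43 for *Col6a2* (-2.53 to -2.45), 0.66 for *Pdgfrb* (0.03 to 0.08) and -0.89 for *Loxl1* (-1.77 to -1.63). The fibrillar genes *Col1a1*, *Col1a2* and *Col3a1*, in which this mouse also had the highest value, did not meet the criterion, since their other WT mice were more spread. *Timp1* was at 0.09 in KO replicate 1, with the other KO mice at -0.18 to -0.14. *Timp3* was at 1.71 in WT replicate 4, with the other WT mice at 2.20 to 2.29.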

How the results depend on the processing

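The 1 member called lower, *Fbln5*, became 0 under normexp (-0.55, limma adjusted p = 0.152), no filter on dim probes (adjusted p = 0.429), probes above background on all 8 arrays (0.201), an unpaired t test (0.290) and a limit of 0.05 on the adjusted p. With an unadjusted p under 0.2, 6 members were lower, and 988 of 29069 probes were called in either direction. With the replicate number, which is also the slide column, as a block, 0 members were called lower (*Fbln5* adjusted p = 0.209) and 592 probes in all. The labels do not say what a number stands for, and the correlations of same-numbered deviations were 0.331, -0.108, 0.104 and 0.319. Since not all 4 were over 0.1, the samples were not taken as pairs. Leaving out 1 mouse gave 0 to 2 members called lower, 0 to 1 higher, 5 to 12 with all KO below all WT, 0 to 1 with all KO above and a median of -0.25 to -0.087, which was -0.26 to -0.17 under the other alternatives. In place of 5 members with all KO below all WT, median scaling gave 8, quantile normalization 7 and normexp 4. The share of all genes was not counted under these settings, so these counts cannot be weighed. Under median scaling the median difference over all probes was -0.063, against -0.025 with the 75th percentile. The 484 probes called became 246 under normexp, 255 with no filter, 270 by the unpaired t test, 117 at an adjusted p under 0.05, 988 with an unadjusted p under 0.2, 1190 with no minimum fold and 251 to 609 with 1 mouse left out. The 5 genes of other lists called lower became 3 under normexp, 0 with no filter, 3 by the unpaired t test, 0 at an adjusted p under 0.05, 13 with an unadjusted p under 0.2 and 0 to 14 with 1 mouse left out. Those called higher, 0, became 2 under normexp, 1 with trend and robust, 1 with the block, 5 with an unadjusted p under 0.2, 1 with no minimum fold and 0 to 1 with 1 mouse left out. The share of all genes called was counted only over all arrays and without WT replicate 2. The cause of these shifts was not tested. Of 703 values of single members over the alternatives, 689 kept their side of the thresholds, 11 lost the call (all *Fbln5*), 3 gained one (*Lum*, *Eln*, *Lrat*) and 0 called values turned sign. Among the 689, 38 values of 14 members that were not called changed sign, all with a difference of at most 0.19 in size over all arrays, and 651 kept their direction. Over all probes the median difference was -0.063 to -0.014 under the 4 scalings. Normexp ran on median spot signals only, for want of mean ones.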
